A study of Mus musculus with 7 samples.

Results

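Nuclear receptors other than the steroid hormone receptors and the SF-1 and LRH-1 pair were examined as possible genomic targets of estrogen receptor beta (ERβ) in mouse ovary. The set held 37 genes of 21728 protein-coding genes on the autosomes and chromosome X. They were taken from a list of receptor genes by name, drawn up with earlier results of these data known. A gene region was the gene body with 50 kb on each side, and the 37 regions did not overlap one another and covered 7.58 Mb. A site was a 200-bp window in which at least 2 of 3 ERβ ChIP libraries were over 4 times the mean of the 2 inputs, with the input held at or above its genome mean.

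Chromatin immunoprecipitation followed by sequencing (ChIP-seq) recovers the DNA fragments that an antibody against ERβ holds after cross-linking, and input is the same kind of chromatin without that enrichment. The 3 ChIP and 2 input libraries came from fresh whole ovaries of untreated female C57BL/6J mice that express their own ERβ, young to adult, without selection by stage of the estrous cycle. Each ChIP library pooled the ovaries of several mice, binding in few cells cannot be told apart from weak binding in many, and the labels do not say whether an input shares its ovaries with a ChIP library. The 2 ERβ ChIP samples from ovaries with deleted ERβ were not analysed here, so that antibody signal independent of ERβ could not be measured.

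Nuclear receptors are transcription factors, many of them switched by small lipophilic ligands such as fatty acids, bile acids, vitamin derivatives and thyroid hormone. Most bind DNA as dimers, and RXR is the common partner of the PPAR, RAR, LXR, FXR, PXR, CAR, TR and vitamin D receptors. In the ovary, ERβ is found mainly in the granulosa cells of the follicle, and it binds the estrogen response element (ERE), a palindrome of GGTCA and TGACC separated by 3 bases of any kind.

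Of the 37 genes, 16 held at least 1 site and 21 held none, and there were 32 sites in all. Of these, 23 sites passed in all 3 ChIP libraries and 9 in 2. The best ERE of 12 sites is printed below because these are 9 of the 10 sites over 8-fold on average with at most 2 mismatches, and the 3 with a perfect ERE, which were weaker. Each is the plus strand of mm10 with 8 bases on each side, capitals mark the 13-bp ERE match, and the position given is that of the capitals.
Nr6a1 region, intron 4 of Nr5a1, chr2:38704534-38704546: ggcagagaGGTCACATCGACCtgggtgcc
Esrrg, downstream, chr1:188222582-188222594: tgtgagcaGGTCAACCCGACTccaataca
Esrrg, intron 4, chr1:188118165-188118177: ccttcccaGGCCACTGTGACCctcctgtg
Pparg, first exon, chr6:115361073-115361085: tcgggtcgGGTCGGCCTCACCgacgcaca
Pparg, intron 2, chr6:115436128-115436140: gctgttgaGGTCAAGGTGTCCcagaatac
Nr1i2, intron 1, chr16:38285149-38285161: gcaaccaaGGTCCTTGTGACCtgctggtg
Nr4a1, upstream, chr15:101248196-101248208: gacacagaGGTCGCCATGCCCtatctgtg
Ppara, intron 1, chr15:85736707-85736719: ggcaacagGGTCACAGTGACTttcccaag
Nr1d2, upstream, chr14:18271361-18271373: tgatctcgGAGCACAGTGACCgcaggacg
Thra, upstream, chr11:98697044-98697056: ccagtcctGGTCACAGTGACCcagcattg
Ppara, upstream, chr15:85719473-85719485: tacccttgGGTCAGCATGACCtggcatca
Nr4a1, downstream, chr15:101319752-101319764: gccaagcaGGTCACACTGACCtatgacct

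Positions within the ERE are counted from 1 at its 5′ end, with the consensus base first. The Nr6a1-region ERE differed from the consensus by T9C, the Nr1i2 ERE by A5C, the intronic Esrrg ERE by T3C and the intronic Pparg ERE by A11T. The intronic Ppara ERE carried C13T. The downstream Esrrg ERE carried T9C and C13T, the first-exon Pparg ERE A5G and G10C, the upstream Nr4a1 ERE A5G and A11C, and the upstream Nr1d2 ERE G2A and T3G. The last 3 sequences matched the consensus without a mismatch.

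The sum of signal over the genome was nearly equal in the 5 libraries, and the genome mean was 0.362 to 0.366 in the ChIP libraries and 0.367 and 0.3697 in the inputs. Track names place ChIP replicate 1 and Input replicate 1 in one naming series and ChIP replicates 2 and 3 and Input replicate 2 in another, and what the series stand for is not stated. ChIP replicate 1 gave the lowest fold at 27 of the 32 sites. Against the input of their own naming series, 31 of the 32 sites were still over 4-fold in at least 2 ChIP libraries. At all 32 sites the lowest of the 3 ChIP signals was above the higher of the 2 inputs. The sites were chosen for high ChIP signal over these same inputs, so this separation is largely built in and is no check of them. The same count over all sites of the genome is not given here.

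The share of receptor genes with a site was 43.2% (16 of 37), against 27.5% of all protein-coding genes under the same definition. Gene length differs between these sets and a longer region has more room for a site. Within gene bodies under 10 kb, 2 of 6 receptor genes held a site against 20% of all protein-coding genes. The shares were 4 of 10 against 26.4% from 10 to 30 kb, 6 of 12 against 32.5% from 30 to 100 kb, and 4 of 9 against 42.9% over 100 kb. Weighting the background by the length classes of the receptor genes gave 31.4%. Over the gene body alone, 9 of 37 receptor genes held a site, against 8.82% of all protein-coding genes. This body share was not weighted by length, although long genes were more frequent among the receptor genes. Bodies over 100 kb made up 9 of 37 receptor genes and 2486 of 21728 protein-coding genes, so the 2 body shares cannot be compared directly. Site density was 4.22 per Mb in the receptor regions, 2.42 per Mb in the merged regions of all protein-coding genes and 1.89 per Mb over the autosomes and X, where 4841 sites were found (3193 in all 3 ChIP libraries). These shares are descriptions, and no test of the set was made.

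**Figure D1:**
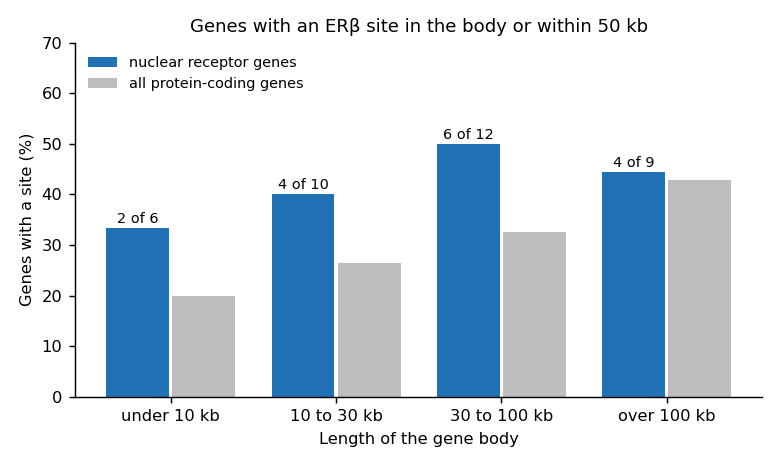
Share of genes with an ERβ site in the gene body or within 50 kb (vertical axis, percent) by length of the gene body (horizontal axis), for the 37 receptor genes (blue, with counts) and all protein-coding genes (grey). The blue bar is above the grey bar in each of the 4 classes, by the least over 100 kb (44.4% against 42.9%).

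Sites were mostly away from the starts of the receptor genes. By location, 14 were in introns, 8 intergenic, 6 in a promoter, 2 at a transcript end, 1 in a UTR and 1 in a coding exon. Relative to the receptor gene, 15 lay in the body, 9 upstream and 8 downstream. Within 1 kb were 6, counted from the gene's own nearest annotated transcript start, and 17 lay beyond 10 kb. For 18 of the 32 sites the nearest protein-coding start was that of the receptor gene, and for 14 it was that of another gene. The nearest protein-coding start of at least 1 of their sites was their own in 10 receptor genes.

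**Figure D2:**
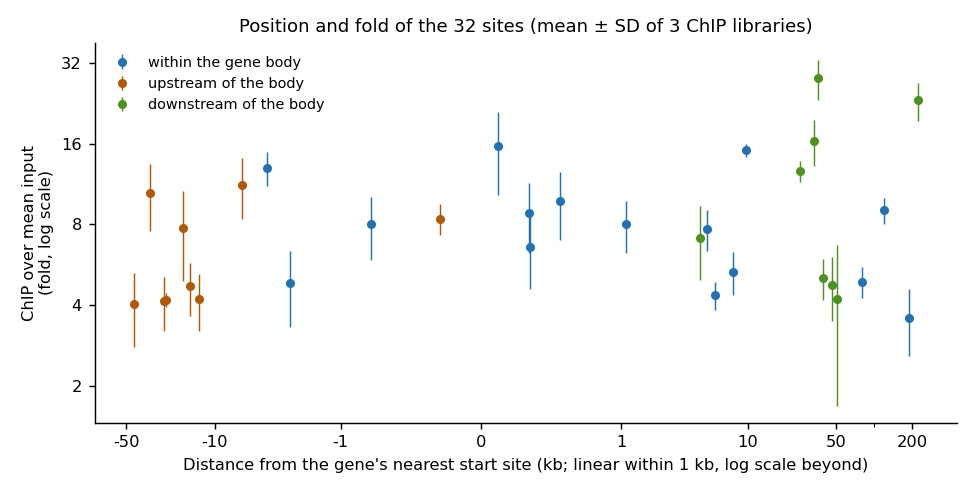
Mean fold of ChIP over input (vertical axis, log scale) against the distance of the site from the gene's own nearest transcript start (horizontal axis, kb, negative upstream) for the 32 sites, with bars for the SD over 3 ChIP libraries and colours for position relative to the gene body. The 2 highest points, at 28.1-fold and 23.3-fold, both lie downstream of a gene body.

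The orphan receptors DAX1 and SHP lack a DNA-binding domain and repress other nuclear receptors. Nr0b2, encoding SHP, which is induced by FXR in liver and lowers bile acid synthesis, held 2 sites. The stronger was centred at -295 bp from its start (chr4:133552981-133553180) and had a signal of 6.41, 5.99 and 7.67 in ChIP replicates 1, 2 and 3 against 0.636 and 0.954 in Inputs 1 and 2. Its fold over input was 8.06, 7.53 and 9.64, a mean of 8.41 ± 1.10 (SD, n = 3). All 3 ChIP libraries were thus well above both inputs, although the best ERE there had 3 mismatches. The window also held an AP-1 motif (TGACTCA or TGAGTCA on either strand). The other site was 4165 bp downstream of the start, had an ERE with 1 mismatch and reached 4.61, 8.48 and 8.37-fold. Nr0b1, encoding DAX1, an X-linked gene needed for adrenal and gonadal development, held no site, and its strongest window was 1.95, 1.75 and 2.35-fold.

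Among the thyroid hormone receptors, Thra (TRα) held 1 site and Thrb (TRβ) none. The Thra site was centred at -43.6 kb from its nearest start, nearer to the start of Csf3, a granulocyte growth factor gene (chr11:98696981-98697180). Its signal was 1.64, 3.09 and 2.84 in the ChIP libraries against 0.620 and 0.629 in the inputs. Its fold was 2.63, 4.95 and 4.55, so that ChIP replicate 1 did not pass 4-fold, although the ERE was perfect. The strongest window of the Thrb region averaged 2.36-fold.

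Of the 5 retinoid receptor genes in the set, Rxra and Rarg held sites and Rxrb, Rxrg and Rarb held none. Rxra encodes RXRα, the dimer partner of many other members. Its strongest site, in intron 4 of 9 (chr2:27744831-27745030), had a signal of 6.06, 6.71 and 8.41 against 1.10 and 0.731 in the inputs, a fold of 6.61, 7.33 and 9.18. A second site in the same intron began within 1 kb of the first and had 4.01, 4.94 and 4.12-fold. The third lay 39.5 kb beyond the nearest Rxra start with 4.24, 4.95 and 6.01-fold, and all 3 Rxra sites had a best ERE with 3 mismatches. Rarg (RARγ, a retinoic acid receptor) held its site in intron 3 of 9 (chr15:102244781-102244980), where the signal was 1.73, 3.18 and 2.37 against 0.395 and 0.340, and the fold was 4.69, 8.63 and 6.43.

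All 3 PPAR genes held sites, 8 of the 32 in total. These receptors bind fatty acids and their derivatives and control lipid use and storage. Pparg, encoding PPARγ, best known for fat cell formation, held 4 sites. The strongest was in the first exon of one of its transcripts, in the 5′ UTR and 120 bp after the start (chr6:115360971-115361170). The signal there was 8.78, 12.03 and 17.41 in ChIP replicates 1, 2 and 3 against 0.839 and 0.783 in the inputs, and the fold was 10.8, 14.8 and 21.5 (mean 15.7 ± 5.38, SD, n = 3). The ChIP libraries differed among themselves by up to about 2-fold, and none came near the inputs. This window had the highest GC content of the 32, 79.5%, against a median of 54.5%.

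A Pparg site in intron 2 of 7 (chr6:115436061-115436260) had a signal of 5.99, 7.83 and 7.62 against 0.779 and 0.320, and a fold of 10.9, 14.3 and 13.9. A promoter site at -788 bp from another Pparg transcript start (chr6:115382811-115383010) had 5.84, 10.1 and 8.17-fold. The fourth, also in intron 2 (chr6:115437371-115437570), had 6.39, 4.80 and 3.34-fold and was the only one of the 32 sites at which ChIP replicate 1 was highest. Against the inputs of their own naming series, its folds were 8.64, 3.81 and 2.65, and it was the single site that no longer passed in 2 libraries.

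Ppara (PPARα, which drives fatty acid oxidation in liver) held its strongest site in intron 1 of 7, 560 bp after the start (chr15:85736591-85736790). The signal was 3.77, 6.73 and 6.29 against 0.490 and 0.656, a fold of 6.58, 11.75 and 10.98. The other Ppara site, at -15.5 kb with a perfect ERE, was lower, at 3.50, 5.44 and 5.16-fold. Ppard (PPARδ, broadly expressed) held its strongest site in intron 2 of 7, 342 bp after an annotated start (chr17:28272361-28272560). Its signal was 6.76, 10.2 and 6.03 against 1.15 and 0.591, and its fold 7.78, 11.7 and 6.94. Near the end of a Ppard transcript a further site had 4.51, 6.39 and 5.08-fold.

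**Figure D3:**
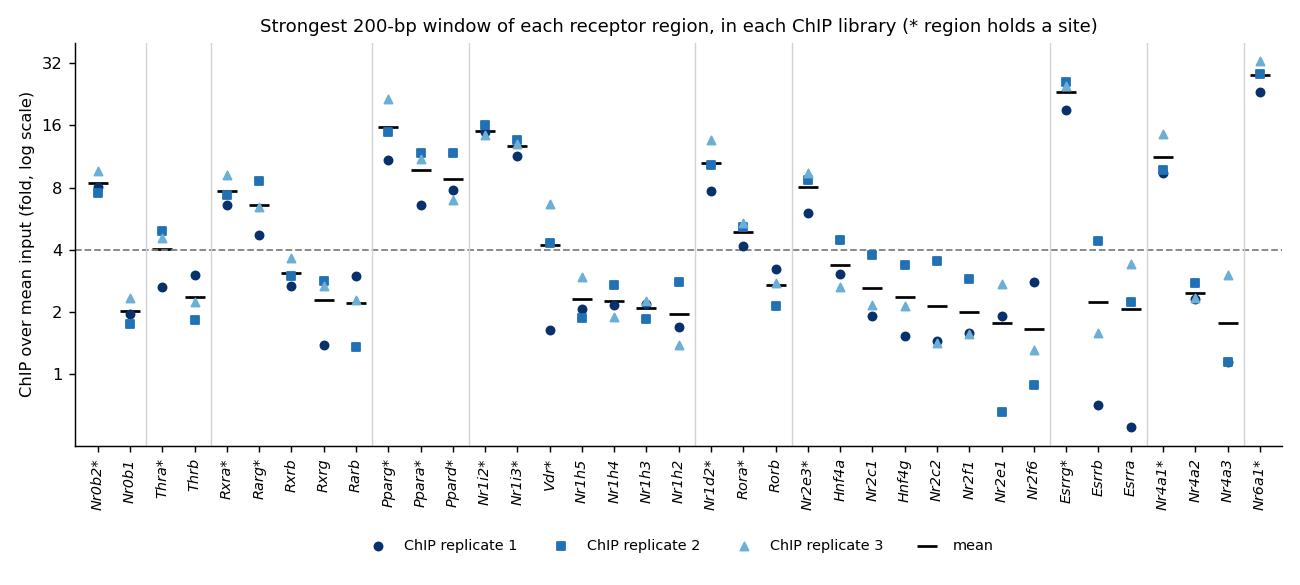
Fold of ChIP over the mean input (vertical axis, log scale) in the strongest 200-bp window of each of the 37 receptor regions (horizontal axis, by class, asterisk for regions with a site), with 1 symbol per ChIP replicate, a black dash for the mean and a dashed line at 4-fold. The PPAR genes are the only class of more than 1 gene in which each gene has a site, and regions without a site average 1.66 to 3.38-fold.

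The sterol, bile acid, vitamin D and xenobiotic sensors numbered 7, of which Nr1i2, Nr1i3 and Vdr held sites. Nr1i2 encodes PXR, a sensor of drugs and foreign compounds. Its 1 site lay in intron 1 of 8, 9713 bp from the start (chr16:38285011-38285210), with a signal of 6.69, 7.21 and 6.45 against 0.428 and 0.470. The fold was 14.9, 16.1 and 14.4 (mean 15.1 ± 0.866, SD, n = 3), and the 3 ChIP libraries lay close together. The window also held a GATA motif (AGATAA or TGATAA on either strand).

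Nr1i3 encodes CAR, the companion sensor to PXR. Its body held no site, and its 3 sites lay upstream or downstream of it. The strongest lay downstream, with a signal of 7.70, 9.11 and 8.75 against 0.729 and 0.618 and a fold of 11.4, 13.5 and 13.0. A site at the promoter of Pcp4l1 had 4.58, 8.68 and 10.1-fold, and one in intron 1 of Pcp4l1 had 4.33, 3.89 and 4.33-fold. The Vdr site, 50.9 kb from its nearest start, lay in the promoter of the histone deacetylase gene Hdac7 (chr15:97808651-97808850). There the signal was 1.08, 2.84 and 4.40 against 0.677 and 0.642, and the fold of 1.64, 4.31 and 6.66 made it the site with the widest relative spread (mean 4.20 ± 2.51, SD, n = 3). Nr1h2 and Nr1h3 (LXRβ and LXRα, oxysterol receptors) and Nr1h4 and Nr1h5 (FXR and FXRβ, the first a bile acid receptor) held no site, and their strongest windows averaged 1.96, 2.10, 2.25 and 2.30-fold.

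Nr1d2 and Rora held sites, and Rorb did not. These genes encode receptors of the circadian clock, with REV-ERBβ repressing and RORα activating from the same elements. The Nr1d2 site was in the promoter of the ribosomal protein gene Rpl15, at -32.2 kb from the nearest Nr1d2 start (chr14:18271251-18271450). Its signal was 10.8, 14.41 and 19.04 against 1.32 and 1.48, the highest inputs at any strongest site, and its fold 7.68, 10.3 and 13.6. The Rora site, in intron 5 of 10 (chr9:69370061-69370260), was weaker, with a signal of 2.29, 2.81 and 2.96 against 0.570 and 0.527 and a fold of 4.17, 5.12 and 5.39. It was the only site with an NR5A motif (CAAGGTCA on either strand, outside an ERE), the element bound by SF-1 and LRH-1.

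Of the 8 genes of the HNF4 and NR2 group, only Nr2e3 held a site. Nr2e3 encodes PNR, a photoreceptor-specific receptor. The site lay in the Nr2e3 body at a transcript end of the gene model Gm7616, 1084 bp from the nearest Nr2e3 transcript start (chr9:59959471-59959670). The signal was 4.35, 6.28 and 6.80 against 0.818 and 0.630, and the fold 6.01, 8.68 and 9.39. The highest window of any region without a site was in this group, in Hnf4a (HNF4α, a liver and gut regulator), at 3.04, 4.47 and 2.64-fold. Hnf4g, Nr2c1, Nr2c2, Nr2e1, Nr2f1 and Nr2f6 held no site, and Nr2f6 was the lowest of all, with 2.78, 0.882 and 1.31-fold in its strongest window.

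The estrogen-related receptors share sequence with the estrogen receptors but bind no estrogen, and they regulate mitochondrial and energy metabolism. Esrrg (ERRγ) held 3 sites, whereas Esrra (ERRα) and Esrrb (ERRβ) held none. The strongest lay downstream of the Esrrg body, 224.7 kb from its nearest start (chr1:188222481-188222680). It had a signal of 10.5, 14.4 and 13.7 in the ChIP libraries against 0.765 and 0.340 in the inputs. The fold was 19.0, 26.0 and 24.9 (mean 23.3 ± 3.75, SD, n = 3). The inputs differed by more than 2-fold here, and the mean fold was 16.8 over Input 1 alone and 34.9 over Input 2 alone. The site in intron 4 of 7 (chr1:188118091-188118290) had 7.92, 9.42 and 9.81-fold, and that in intron 6 had 2.43, 4.16 and 4.16-fold. Esrrb reached 4.41-fold in ChIP replicate 2 only, with 0.706 in replicate 1 and 1.58 in replicate 3.

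The NR4A receptors are immediate early genes that respond to gonadotropins and other signals without a known hormone ligand. Nr4a1 (NUR77) held 4 sites, and Nr4a2 (NURR1) and Nr4a3 (NOR1) none. The strongest Nr4a1 site was centred at -6.07 kb (chr15:101248101-101248300), with a signal of 6.94, 7.12 and 10.7 against 0.720 and 0.750 and a fold of 9.44, 9.69 and 14.6. A second upstream site at -13.2 kb had 3.15, 5.16 and 4.38-fold. The others were in a coding exon of the neighbouring gene Grasp, at 3.07, 4.597 and 4.779-fold, and far downstream with a perfect ERE, at 3.43, 5.99 and 4.87-fold. Only the strongest of the 4 passed in ChIP replicate 1.

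The highest fold of all was in the region of Nr6a1, which encodes GCNF, a receptor of germ cells and early embryos. Both sites of the region lay outside the Nr6a1 body, in intron 4 of 6 of the neighbouring gene Nr5a1, which encodes SF-1, the main activator of steroid hormone synthesis genes. The stronger (chr2:38704471-38704670) had a signal of 21.3, 25.83 and 29.99 in ChIP replicates 1, 2 and 3 against 1.02 and 0.814 in the inputs. Its fold was 23.3, 28.2 and 32.8 (mean 28.1 ± 4.77, SD, n = 3). The second began about 2 kb further along (chr2:38706821-38707020) with 12.9, 17.3 and 19.1-fold. These were therefore sites of an SF-1 intron that fell within the distance limit of Nr6a1. Their nearest protein-coding start was that of Nr5a1, 7663 and 5313 bp away.

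**Figure D4:**
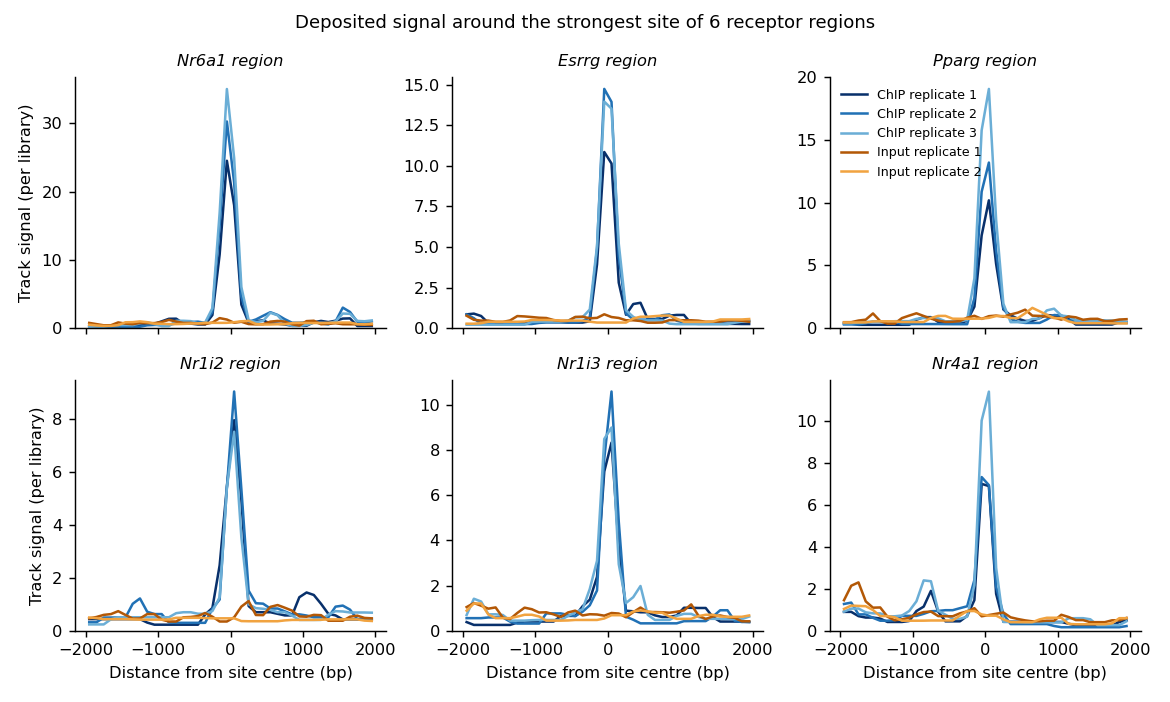
Deposited signal in 100-bp steps (vertical axis, a separate scale in each panel) by distance from the centre of the strongest site (horizontal axis, bp) in 6 receptor regions, with the 3 ChIP libraries in blue and the 2 inputs in orange. Each ChIP library rises at the centre while both inputs remain low, and the runs of windows over threshold had a median length of 460 bp over all 32 sites.

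Among other nuclear receptor genes, Esr2, the gene of ERβ itself, held 2 sites, at mean folds of 8.22 and 6.56, and Pgr, the progesterone receptor gene, held 1, at 3.95. Esr1, Nr3c2, Nr5a2 and Nr1d1 held none. The 2 sites of Nr5a1 are those given above.

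Just inside the threshold were the site in intron 6 of Esrrg, with 4.16-fold in both libraries that passed, and the second Rxra site, with 4.01, 4.94 and 4.12-fold. The highest windows of regions without a site were those of Hnf4a, above, Rxrb (RXRβ) with 2.67, 2.98 and 3.65-fold, and Rorb (RORβ) with 3.21, 2.14 and 2.77-fold. At a threshold of 3-fold there were 41 sites in the regions of 18 genes. In 2 of the 21 regions without a site the strongest window was over 4-fold in a single library.

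Folds read in a ChIP library that was not used to find a site are free of the choice made on that library, though not of the choice made on the inputs. Sites found in ChIP replicates 2 and 3 (30) had a median of 5.93-fold in replicate 1, and 21 of them were over 4-fold there. Sites found in replicates 1 and 3 (24) had a median of 9.53-fold in replicate 2, and those found in replicates 1 and 2 (24) had 9.73-fold in replicate 3, with 23 of 24 over 4-fold in each case. The 3 medians averaged 8.39 ± 2.14 (SD, n = 3). For all sites of the genome the same medians were 5.71, 7.94 and 7.52 in replicates 1, 2 and 3. The shares over 4-fold were 74.45%, 93.47% and 87.85% for all sites, against 70%, 95.83% and 95.83% for the receptor sites. The receptor share was thus below that of all sites in replicate 1 and above it in replicates 2 and 3. When each input was called against the other, no window of the receptor regions passed 4-fold, whereas single ChIP libraries gave 29, 36 and 40 runs. Over the genome, Inputs 1 and 2 gave only 63 and 195 runs, and ChIP replicates 1, 2 and 3 gave 4655, 7179 and 6410. With so few input runs in the genome, their absence from the receptor regions says nothing particular about those regions.

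Allowing 2 mismatches among the 10 fixed bases, an ERE was found in 21 of the 32 sites (65.6%, exact 95% interval 46.8 to 81.4%, counting error only). Among all sites of the genome the share was 68.1%, and among 37767 windows of the receptor regions without a site it was 7.85%. With at most 1 mismatch the shares were 31.2, 33.1 and 0.585%. The ERE lay a median of 25 bp from the centre of the site, and no more than 67 bp from it. A half-site AGGTCA outside an ERE was in 28.1% of the receptor sites and 32.7% of all sites, a GATA motif in 18.8 and 29.7%, AP-1 in 9.38 and 6.65%, and NR5A in 3.12 and 7.52%. In windows without a site these 4 shares were 11.2, 20.1, 3.33 and 1.13%. The GATA share of the receptor sites was thus close to that of windows without a site, and with 32 sites a difference of a few sites cannot be read. Motifs were searched on both strands, and a match is not evidence of binding by the factor.

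ERE mismatches and fold did not run in parallel in these sites. The 3 perfect EREs, in the Thra, Ppara and Nr4a1 regions, lay in sites of 4.04, 4.70 and 4.76-fold on average, and each of these sites was below 4-fold in ChIP replicate 1. Over the genome, 308 sites with a perfect ERE had a median of 7.45-fold. With 1, 2, 3 and 4 mismatches the genome medians were 6.81, 6.23, 5.67 and 5.15-fold, and 5.39 in the 7 sites with 5. Fold thus fell with mismatches up to 4 over the genome, and 3 receptor sites are too few to set against that. The 7 receptor sites with 1 mismatch had a median of 12.7-fold (range 7.15 to 28.1), against 6.81 for all such sites. The 21 sites with an ERE of at most 2 mismatches had a median of 7.79-fold and the 11 without one 7.71. Over all 32 sites the median was 7.75-fold, against 6.23 for all sites of the genome.

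**Figure D5:**
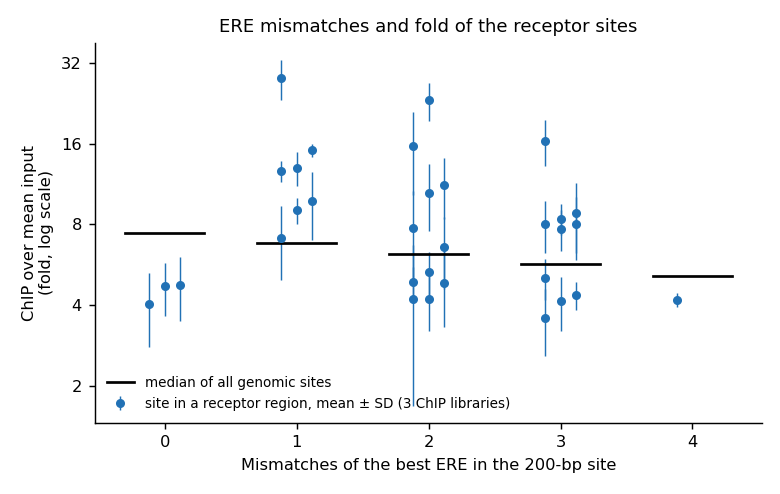
Mean fold of the 32 receptor sites (vertical axis, log scale, bars for the SD over 3 ChIP libraries) by the number of mismatches of their best ERE (horizontal axis), with black lines for the median of all genomic sites of that number. The 3 sites with a perfect ERE lie at 4.04 to 4.76-fold, below the line, while the sites with 1 mismatch reach 28.1-fold.

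Windows of 1 kb over the whole genome were compared between ChIP and input with limma, on log2(signal + 0.5). Of 7512 windows in the receptor regions, 20 were higher in ChIP at an adjusted p under 0.05 (0.266%), against 0.0957% of 2430644 windows in the genome. Each of the 20 held a site, and they fell in 12 regions. Windows and sites were read from the same libraries, so this overlap is no independent check. Only 20 of the 32 sites had their centre in a called window. The Thra, Rarg, Vdr and Rora regions held a site but no called window, and the other sites outside one lay in regions that had one. No window was lower in ChIP at an adjusted p under 0.05 (background 0.00267%), but 7 were when ChIP replicate 3 was left out, with 683 in the genome. At an unadjusted p under 0.05, 451 windows were lower (6.00%, background 3.33%) and 95 were higher (1.26%, background 1.90%).

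The window with the smallest p was that of the Nr5a1 intron in the Nr6a1 region (log2 fold change 2.64, SE 0.26, limma adjusted p = 5.47e-08). ChIP replicates 1, 2 and 3 stood there at 6.24, 7.86 and 9.03 against 0.825 and 0.788 in the inputs. The downstream Esrrg window followed, with 3.18, 4.13 and 4.25 against 0.618 and 0.411 (log2 fold change 2.10, SE 0.22, limma adjusted p = 1.47e-07). The Nr1d2 window at the Rpl15 promoter had 3.46, 4.84 and 6.07 against 0.856 and 1.05 (1.84 on the log2 scale, limma adjusted p = 2.43e-05), and the downstream Nr1i3 window had 2.72, 2.89 and 3.19 against 0.771 and 0.629 (1.52, limma adjusted p = 3.77e-05). In these 4 the lowest ChIP library was more than 3-fold above the higher input. They were named for their small p in this comparison, so the separation is largely built in and is no check of them.

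Next were Nr1i2, with 2.33, 2.65 and 2.22 against 0.753 and 0.391 (log2 fold change 1.46, limma adjusted p = 4.44e-05), and the second Nr5a1 intron window, with 2.08, 3.13 and 3.19 against 0.576 and 0.699 (log2 fold change 1.52, limma adjusted p = 4.65e-05). For Nr4a1, the upstream window had 1.97, 2.12 and 2.90 against 0.679 and 0.589 (log2 fold change 1.31, limma adjusted p = 3.13e-04). The 3 remaining of the first 10 belonged to the PPAR genes. The intron 2 window of Pparg had 1.80, 2.43 and 2.35 against 0.788 and 0.454 (limma adjusted p = 4.49e-04), that of Ppard 2.38, 3.42 and 2.27 against 0.854 and 0.691 (limma adjusted p = 7.28e-04), and the first-exon window of Pparg 2.77, 3.28 and 4.68 against 1.03 and 1.03 (limma adjusted p = 1.25e-03).

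Of the 20 windows, 6 were called in each of the 5 fits that left out 1 library: both Nr5a1 intron windows, and those of Esrrg (downstream), Nr1d2, Nr1i3 (downstream) and Nr4a1 (upstream). Without ChIP replicate 2, 8 of the 20 were called, and without Input replicate 2 also 8. All 20 were called with the naming series as a term.

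Promoters, from 1 kb before to 100 bp after the gene start, gave no receptor gene an adjusted p under 0.05 in limma in either direction (background 0.00% higher and 0.00460% lower of 21728 genes). At an unadjusted p under 0.05, 2 receptor promoters were higher (background 1.64%) and 0 were lower (background 7.96%). These were Nr0b2, with a promoter signal of 2.36, 2.47 and 2.90 in the ChIP libraries against 0.699 and 0.927 in the inputs (log2 fold change 1.23, SE 0.18, limma adjusted p = 0.224), and Pparg, with 1.10, 1.23 and 1.98 against 0.781 and 0.714 (0.61, limma adjusted p = 0.515). In both genes the 3 ChIP libraries were above both inputs, which is largely built in because these promoters were picked by their p. Receptor promoters had a median log2 fold change of -0.08, and all promoters one of -0.12.

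RefSeq promoter sequences, from 250 bases before to 50 after each start, were matched for 35 of the 37 genes (51 promoters, mm10). An ERE with at most 2 mismatches was in 6 of them (11.8%), against 11.1% of 32851 promoters of all genes. Those 6 belonged to Rxra, Nr6a1, Nr4a2, Nr4a3 and Pparg (2), and of these promoters only 1, that of Pparg, overlapped a site.

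Averaged over whole regions, the ChIP signal did not exceed the input. The mean signal over the 37 regions was 0.382, 0.403 and 0.424 in ChIP replicates 1, 2 and 3 and 0.439 and 0.432 in the inputs. ChIP averaged 0.403 ± 0.0215 (SD, n = 3) and input 0.435 ± 0.00539 (SD, n = 2). The groups did not overlap, and the difference of -0.0322 had a 2-sided p of 0.2 in an exact permutation test. With 3 against 2 libraries no p below 0.1 can be reached on either side. Relative to the genome mean of each library, the regions stood at 1.05, 1.11 and 1.16 in ChIP and 1.19 and 1.18 in input.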

How the data were processed

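Per the labels and the study's methods, ovary ERβ ChIP and input reads were aligned by the authors with STAR to mm10, uniquely mapped reads were kept and HOMER was used. The deposited signal (coverage) tracks, 1 per library, were normalised by the authors to a common total. The fragment length and duplicate handling used to make the tracks are not given in the sources used here. Segment resolution differed, with a median segment of 269 bp in Input 1 and 481 to 519 bp in the others. Because the values are normalised and averaged, read counts cannot be recovered from the tracks, and no counting interval on signal was made.

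Mean signal was computed in 200-bp windows at 10-bp steps on the autosomes and X. Passing windows within 200 bp were joined, and the window of highest mean fold was the site. Annotation was GENCODE vM21. Promoters and those 1-kb windows whose signal averaged 0.1 or more were tested with limma 3.58.1 (R 4.3.3, trend) on log2(signal + 0.5) with Benjamini-Hochberg adjustment, which understates changes of low signal. Python 3.11.15, numpy 2.4.6, scipy 1.17.1 and pysam 0.24.0 were used. The calls were tested on simulated data. Replicates are pools of separate mice for ChIP, and for the inputs the p-values may measure technical spread.

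Groups and replicate numbers came from sample titles. Genes and lists were chosen with earlier results of these data known. Length classes replaced length-matched random genes. Values in each library are given for the strongest site of each gene with one, the 10 windows of smallest p, and the 3 genes without a site of highest mean fold, and other genes and sites named were chosen after their values were seen. Thresholds, inputs, windows, flanks, pseudocounts, filters and left-out libraries were varied. Some items are not reported here.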

Additional observations from a re-analysis of the deposited data

How the results depend on the processing

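For site counts, using a single input and leaving out the other input are the same setting, and both were counted. Of 149 alternative values listed in this way, 124 were labelled the same. For counts this meant within a set factor of the main count, and for the mean signal the same sign. For shares and folds it meant within the interval or spread of the main value. Only the difference in mean signal could have been labelled reversed, and it kept its sign in each alternative. The 32 sites became 16 at 8-fold, 20 with 400-bp windows, 15 in gene bodies only and 20 when sites were assigned by nearest protein-coding start, and 24 to 36 without 1 library. The 16 genes with a site became 10 at 8-fold and 9 in gene bodies only, and 14 to 16 without 1 library. The 20 higher windows became 11 in gene bodies and 1 without the filter on low signal, and 8 to 21 without 1 library. The 0 lower windows became 1 without the filter, 1 with the naming series as a term, and 0 to 7 without 1 library, with 7 without ChIP replicate 3. The cause of these changes was not tested. The share of sites with an ERE was 31.2% at 1 mismatch and 9.38% at none, against 65.6%.

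With the replicate block, 22 windows were higher, all 20 among them, and 23 lower, against 3427 higher and 3207 lower of 2430644 in the genome. Same-numbered libraries did not deviate together (r = 0.0362 and -0.0111 over 2430644 windows, which are not independent), so the numbers were not taken as pairs. Of 48 recomputed strongest-site folds, 40 moved by less than 1 SD. The difference in mean signal ranged from -0.0429 to -0.0214 without 1 library, and the held-out median from 7.73 to 9.63. The inputs' signal, at most about 1 in most windows, limits the precision of each fold.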

Other observations

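When sites were assigned by the nearest protein-coding start without a distance limit, 20 sites belonged to 11 receptor genes. Pparg had 4, Ppara and Rxra 3 each, Nr0b2 and Nr4a1 2 each, and Esrrg, Nr1i2, Nr2e3, Nr2f1, Ppard and Rarg 1 each. Nr2f1 (COUP-TFI) had no site within 50 kb. None of the 32 sites was masked as repeat over at least 50% of its bases, against 6.63% of all sites and 21.1% of windows of the receptor regions without a site.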
